A study of Homo sapiens with 16 samples.

Results

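The 39 human HOX genes of the HOXA, HOXB, HOXC and HOXD clusters were followed across 16 libraries of open chromatin from IMR90, fibroblasts of human lung. The members were all protein-coding genes of RefSeq (GRCh38.p14) named HOXA, HOXB, HOXC or HOXD with a number, which gave 39 of 19974 genes on chromosomes 1 to 22 and X. HOXA holds 11 of them on chromosome 7 (27092993 to 27200091), HOXB 10 on chromosome 17 (48528526 to 48728750), HOXC 9 on chromosome 12 (53938831 to 54056030) and HOXD 9 on chromosome 2 (176087487 to 176190907), in hg38 and counted from 1. The measure at a locus was the number of distinct listed peaks with their summit in the gene body or within 10 kb of it, and for a whole cluster the number between its outermost genes plus 10 kb, each peak counted once.

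HOX genes encode homeodomain transcription factors that set position along the body axis. Their order along a cluster follows the order in which they are used, from anterior genes of low number to posterior genes of high number, and adult fibroblasts keep a HOX pattern that reflects the part of the body they came from. Unused stretches of a cluster are held closed by Polycomb proteins, and HOX proteins bind DNA together with cofactors of the PBX and MEIS families.

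The cells carried a retrovirus encoding ΔB-RAF:ER, a B-RAF kinase fused to the estrogen receptor that 4-hydroxy-tamoxifen (4-OHT) switches on, and sustained Raf signalling of this kind leads to oncogene-induced senescence. The 4 groups were Raf-active normoxia, Raf-inactive normoxia, Raf-active hypoxia and Raf-inactive hypoxia, each with 4 replicates, where hypoxia was 0.5% O2 and the question was how hypoxia affects chromatin accessibility in senescence. The labels describe the virus and the drug for all samples alike. They do not say how the Raf-inactive cells differed in treatment, how long hypoxia lasted, or whether replicates were separate cultures. The p-values below therefore rest on library-to-library spread that may be technical alone. Expression of the kinase came from a viral vector, so its level is not that of the cell's own gene.

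Open chromatin was found by ATAC-seq, in which Tn5 transposase cuts accessible DNA. Each library had its own list of 169287 to 206757 distinct peaks. A peak is listed only when it passes the caller's threshold, so a missing peak means not called at that depth. Read totals are not in the lists, so depth is given as the background pileup recovered from each of them. It was 6.09 to 7.10 in Raf-active and 3.01 to 3.5 in Raf-inactive normoxia, with 6.53 to 8.34 in Raf-active and 4.61 to 5.02 in Raf-inactive hypoxia. Depth thus differed with Raf state, and between oxygen states in Raf-inactive cells. Values at matched depth are given where they bear on a result. All 13 loci of a fibroblast marker list had peaks in every group, with summed scaled peaks of 116 to 124 in Raf-active and 124 to 133 in Raf-inactive normoxia, with 110.0 to 114 in Raf-active and 141 to 147 in Raf-inactive hypoxia. All 8 epithelial, 6 endothelial and 7 blood loci also had peaks in both Raf-inactive groups, so the presence of peaks at these loci does not set the labelled cell type apart. In the Raf-active groups all of them had peaks except ESRP1, which marks epithelium, and HBB, which marks red cells. Summed scaled peaks at the 8 epithelial loci were 49.9 to 55.0 in Raf-active and 44.3 to 45.8 in Raf-inactive normoxia, with 55.9 to 59.8 in Raf-active and 43.4 to 47.0 in Raf-inactive hypoxia. At the 7 blood loci they were 30.3 to 36.3 and 26.2 to 31.4 in normoxia, and 38.5 to 41.8 and 32.2 to 33.5 in hypoxia, and at the 6 endothelial loci 96.2 to 100.9 and 84.1 to 88.3, and 96.7 to 100.2 and 90.2 to 96.3, Raf-active before Raf-inactive. The part of these differences in the results below was not tested.

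RefSeq promoter windows of 300 bases, from 250 before to 50 after a gene's start, were at hand for 20 of the 39 genes (GRCh38.p14), and 18 of these matched the outer end of the gene used here. The windows of 6 genes are shown because their state or the peaks around them differed between groups. HOXA9, HOXC4 and HOXD8 are among the loci with the largest changes, and HOXA7, HOXA11 and HOXA13 were chosen after their values were seen. They lie at chr7:27156626-27156925 (HOXA7), chr7:27165488-27165787 (HOXA9), chr7:27185183-27185482 (HOXA11) and chr7:27200042-27200341 (HOXA13), all on the minus strand, and at chr12:54016638-54016937 (HOXC4, also the window of HOXC5) and chr2:176129455-176129754 (HOXD8) on the plus strand. Each is written 5′ to 3′ on the strand of its gene. Capitals mark ACGTG, the core of the hypoxia response element, read on either strand, so CACGT is its reverse and CACGTG holds it on both strands.
HOXA7: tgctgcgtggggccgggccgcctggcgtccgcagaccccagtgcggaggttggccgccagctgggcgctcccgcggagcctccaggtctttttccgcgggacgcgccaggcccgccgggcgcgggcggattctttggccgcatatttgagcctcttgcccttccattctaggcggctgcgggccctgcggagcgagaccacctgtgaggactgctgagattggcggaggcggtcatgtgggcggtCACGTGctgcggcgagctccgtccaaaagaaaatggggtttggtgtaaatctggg
HOXA9: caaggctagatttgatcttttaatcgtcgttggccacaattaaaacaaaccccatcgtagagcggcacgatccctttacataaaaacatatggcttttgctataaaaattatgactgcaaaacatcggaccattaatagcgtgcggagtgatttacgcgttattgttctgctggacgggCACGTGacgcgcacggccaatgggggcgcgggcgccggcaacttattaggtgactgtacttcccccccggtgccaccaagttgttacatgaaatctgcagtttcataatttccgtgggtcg
HOXA11: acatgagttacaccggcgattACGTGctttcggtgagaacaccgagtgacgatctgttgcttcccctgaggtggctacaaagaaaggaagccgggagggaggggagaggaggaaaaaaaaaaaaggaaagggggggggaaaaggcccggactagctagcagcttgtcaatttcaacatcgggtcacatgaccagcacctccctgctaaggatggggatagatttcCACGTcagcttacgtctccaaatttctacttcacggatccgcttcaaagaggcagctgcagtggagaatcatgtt
HOXA13: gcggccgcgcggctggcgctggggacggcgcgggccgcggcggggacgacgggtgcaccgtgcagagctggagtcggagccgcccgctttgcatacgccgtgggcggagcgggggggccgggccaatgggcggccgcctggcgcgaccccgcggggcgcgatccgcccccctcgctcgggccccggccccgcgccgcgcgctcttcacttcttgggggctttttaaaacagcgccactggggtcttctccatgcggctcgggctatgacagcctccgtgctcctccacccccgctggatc
HOXC4: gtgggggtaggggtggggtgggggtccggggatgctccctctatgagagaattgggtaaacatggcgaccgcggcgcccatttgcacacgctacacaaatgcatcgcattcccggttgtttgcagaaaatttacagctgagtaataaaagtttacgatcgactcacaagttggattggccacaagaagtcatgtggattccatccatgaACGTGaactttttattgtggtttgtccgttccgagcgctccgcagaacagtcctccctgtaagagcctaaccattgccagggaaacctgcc
HOXD8: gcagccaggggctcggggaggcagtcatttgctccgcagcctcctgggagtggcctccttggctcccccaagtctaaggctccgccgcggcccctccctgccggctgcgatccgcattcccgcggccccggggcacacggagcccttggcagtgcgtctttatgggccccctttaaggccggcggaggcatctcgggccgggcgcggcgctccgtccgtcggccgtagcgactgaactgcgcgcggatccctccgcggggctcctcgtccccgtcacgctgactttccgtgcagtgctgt
ACGTG was in 13 of the 20 HOX windows, or 12 of 19 distinct ones (63.2%), against 23.7% of 15812 promoter windows of protein-coding genes. The AP-1 motif TGANTCA was in none of the 20, against 5.7% of all windows. The HOX-PBX motif TGATTNAT was in 2 of the 20, those of HOXA2 and HOXD11, against 2.0% of all, and AGNGGGCNC, part of the CTCF motif, was in 4 of the 20 against 10.4%. Both strands were searched, and a match is a description of the letters only. The median GC content was 58.0% in the HOX windows and 62.7% in all windows, with an observed to expected CpG ratio of 0.87 and 0.76, so the windows compared differ in base composition.

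As wholes, the 4 clusters differed in how their peaks varied with Raf state and oxygen. HOXD had fewer peaks with Raf active in normoxia than in any other group. HOXC gained peaks with Raf active in normoxia and with hypoxia in Raf-inactive cells. HOXB, the cluster with the most peaks, did not pass the test in any comparison, and the called changes of HOXA were 0.28 and -0.23 on the log2 scale. For the test, peak numbers were scaled to the same total per library and fitted as log2 of the scaled number plus 1 peak in limma over all protein-coding loci averaging 3 peaks or more, and called at a Benjamini-Hochberg adjusted p below 0.05 over all of them.

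**Figure D1:**
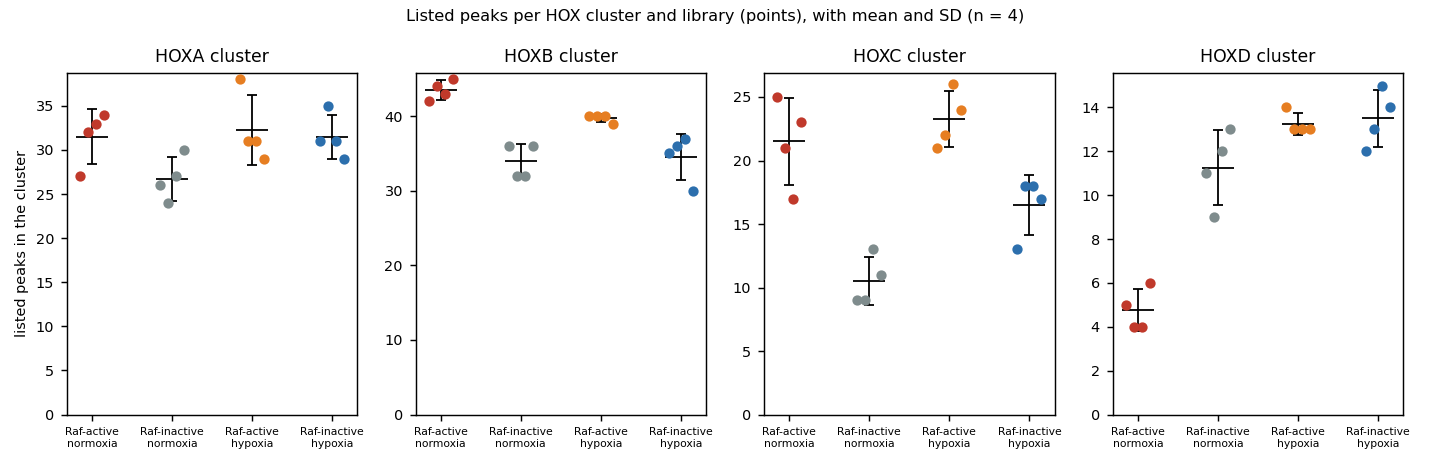
Listed peaks in each HOX cluster (vertical axis, from 0) in the 4 libraries of each group (points), with the mean and SD. The 4 HOXD values of Raf-active normoxia, 4 to 6, lie below all others of that cluster, and the HOXC values of Raf-inactive normoxia, 9 to 13, do not exceed those of any other group.

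The HOXD cluster had 5, 4, 4 and 6 listed peaks in Raf-active normoxia and 11, 9, 12 and 13 in Raf-inactive normoxia. In hypoxia it had 14, 13, 13 and 13 in Raf-active cells and 12, 13, 15 and 14 in Raf-inactive cells. The Raf-active normoxia libraries stood below all 12 others with no overlap, and their background pileup was higher than that of either Raf-inactive group. With Raf active in normoxia the scaled number fell by 1.32 ± 0.11 on the log2 scale (SE, adjusted p = 3.1e-09, limma), with means of 4.27 ± 0.793 scaled peaks in Raf-active and 12.1 ± 1.74 in Raf-inactive normoxia (SD, n = 4 each). With hypoxia in Raf-active cells it rose by 1.35 ± 0.11 (adjusted p = 4.23e-08, limma), a comparison that shares the 4 Raf-active normoxia libraries. The Raf change in hypoxia was -0.27 ± 0.11 (adjusted p = 0.0396, limma), a call that was lost at matched depth, and the difference between both Raf changes, their interaction, was 1.05 ± 0.15 (adjusted p = 1.39e-04, limma). The base pairs covered averaged 2.21 kb in Raf-active and 4.39 kb in Raf-inactive normoxia, and 6.86 kb in Raf-active and 6.74 kb in Raf-inactive hypoxia. At matched depth HOXD had 3 to 4 peaks in Raf-active normoxia and 7 to 11 in Raf-inactive normoxia, with 10 to 11 in Raf-active hypoxia and 9 to 13 in Raf-inactive hypoxia.

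The HOXC cluster had 25, 21, 17 and 23 peaks in Raf-active normoxia and 9, 9, 13 and 11 in Raf-inactive normoxia. In hypoxia it had 21, 22, 26 and 24 in Raf-active cells and 13, 18, 18 and 17 in Raf-inactive cells. In these listed numbers, before scaling, the Raf-active and Raf-inactive libraries did not overlap in either oxygen state. At matched depth they overlapped in hypoxia. The scaled number rose by 0.73 ± 0.12 with Raf active in normoxia (adjusted p = 2.59e-05, limma) and by 0.67 ± 0.12 with hypoxia in Raf-inactive cells (adjusted p = 1.24e-03, limma), both relative to the same 4 Raf-inactive normoxia libraries. The Raf difference in hypoxia, 0.22 ± 0.12, did not pass the test (adjusted p = 0.111, limma). The interaction of -0.50 ± 0.17 (adjusted p = 0.0412, limma) lost its call at matched depth. It kept its call in only 5 of 16 fits with 1 library left out. At matched depth HOXC had 15 to 19 peaks in Raf-active and 8 to 11 in Raf-inactive normoxia, with 15 to 20 in Raf-active and 10 to 16 in Raf-inactive hypoxia.

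The HOXB cluster had 42, 44, 43 and 45 peaks in Raf-active normoxia and 36, 32, 32 and 36 in Raf-inactive normoxia, with 40, 40, 40 and 39 in Raf-active hypoxia and 35, 36, 37 and 30 in Raf-inactive hypoxia. More peaks were listed with Raf active in both oxygen states. After scaling, the log2 differences were 0.10 ± 0.06 in normoxia and -0.06 ± 0.06 in hypoxia, neither of them called, while without scaling they were 0.348 and 0.203. The HOXA cluster had 27, 32, 33 and 34 peaks in Raf-active normoxia and 26, 24, 27 and 30 in Raf-inactive normoxia, with overlapping groups. In hypoxia it had 38, 31, 31 and 29 in Raf-active and 31, 35, 31 and 29 in Raf-inactive cells. HOXA rose by 0.28 ± 0.09 with hypoxia in Raf-inactive cells (adjusted p = 0.0343, limma) and fell by 0.23 ± 0.09 with Raf active in hypoxia (adjusted p = 0.0277, limma). The rise was not called without scaling (0.229) or with the replicate block (0.284), nor in 6 of 16 fits with 1 library left out. The second difference was 0.029 without scaling.

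Of the 39 loci, 29 reached the mean of 3 peaks and were tested: all 11 of HOXA, 9 of HOXB, 7 of HOXC and 2 of HOXD. The loci of neighbouring genes overlap for 38 of the 39 members, all but HOXB13, so one peak can count for several genes, and HOXC5 and HOXC6 held the same peaks in every library. The 10 members below the minimum were HOXB13, HOXC12, HOXC13, HOXD1, HOXD3, HOXD4, HOXD9, HOXD10, HOXD11 and HOXD12, so the tested members leave out most of HOXD. The loci with the most peaks were HOXB3 and HOXA3, which span the longest gene bodies as annotated: HOXB3 had 24 to 27 peaks in Raf-active and 14 to 19 in Raf-inactive normoxia, and HOXA3 had 18 to 23 in Raf-active and 16 to 19 in Raf-inactive normoxia.

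**Figure D2:**
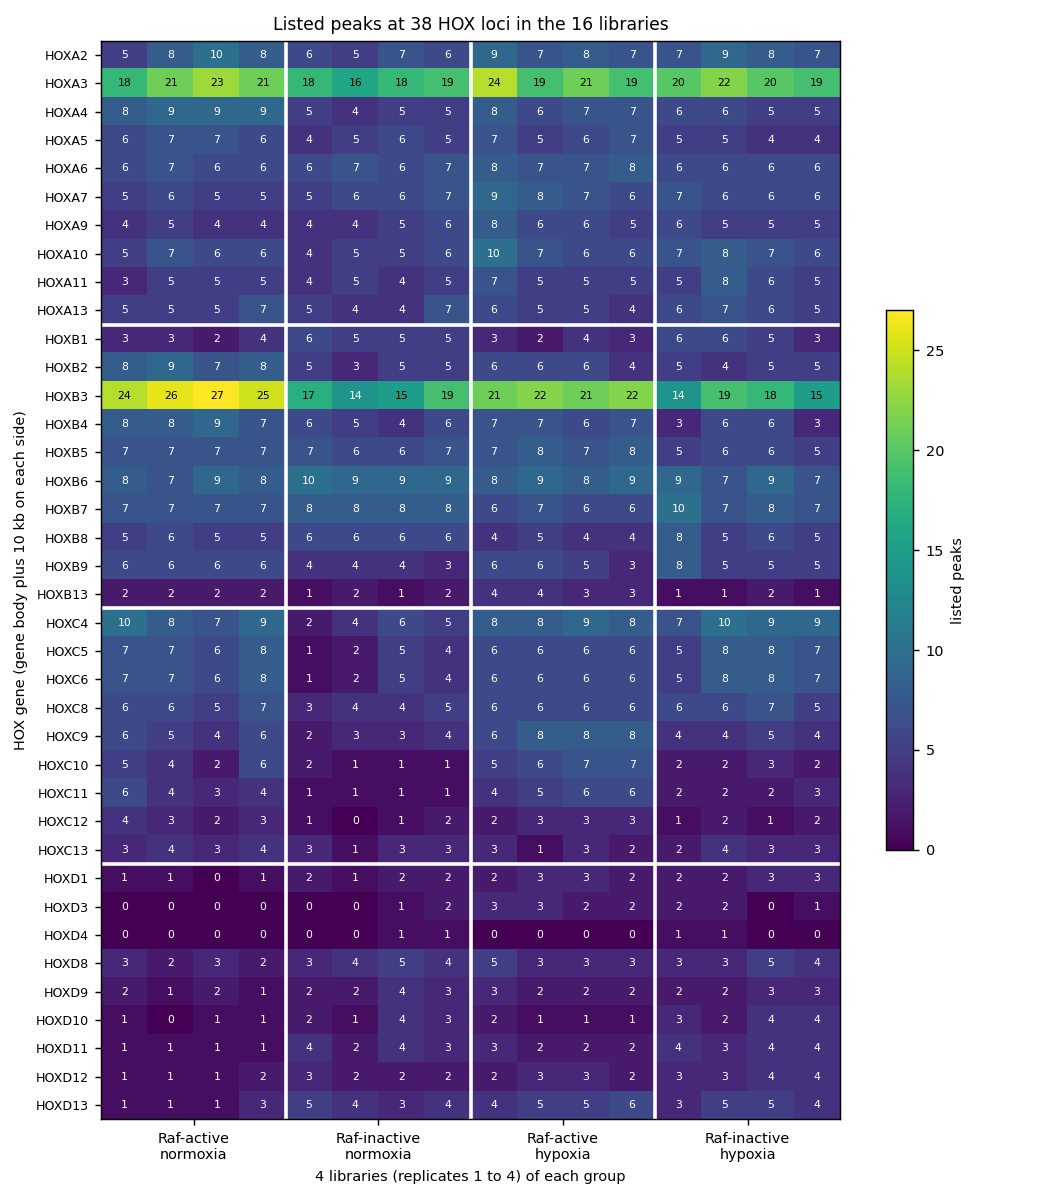
Listed peaks at 38 of the 39 HOX loci (rows, by cluster and number) in the 16 libraries (columns, 4 per group). HOXD4 had 0 peaks in all 8 Raf-active libraries, and HOXD3 had 0 in the 4 Raf-active normoxia libraries and 2 to 3 in the 4 Raf-active hypoxia libraries.

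With Raf active in normoxia, 10 of the 29 tested members rose and 9 fell, where 37.2% of 15118 tested loci rose and 25.9% fell. The median log2 difference was 0.07 over the members and 0.10 over all loci. All 7 tested HOXC members rose and both tested HOXD members fell, while HOXA had 1 rise and 3 falls and HOXB 2 rises and 4 falls. Without scaling, which moved the median of all loci to 0.33, the split was 15 rises and 3 falls.

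The largest rises were at loci of posterior HOXC genes, which share peaks. The region over the start of HOXC10, at chr12:53984824-53985821, lies within 10 kb of HOXC11 and counts for both. HOXC11, a gene of the hindlimb and lumbosacral region, had 6, 4, 3 and 4 peaks in Raf-active normoxia and 1 in each Raf-inactive normoxia library, a rise of 1.19 ± 0.15 (adjusted p = 1.21e-06, limma). HOXC10, its neighbour with a like role, had 5, 4, 2 and 6 peaks in Raf-active and 2, 1, 1 and 1 in Raf-inactive normoxia, a rise of 1.00 ± 0.20 (adjusted p = 2.23e-04, limma). For HOXC11 the groups did not overlap, and for HOXC10 they met at 2 peaks. Over all libraries HOXC11 averaged 3.078 scaled peaks and HOXC10 3.376, near the minimum of 3. Raf-inactive means in normoxia and hypoxia were 1.079 and 2.524 at HOXC11 and 1.349 and 2.529 at HOXC10. Both loci thus entered the test through their Raf-active values, so their rises are not independent of the filter. HOXC11 reached the minimum in 12 of the 16 fits with 1 library left out. HOXC5, a central gene, had 7, 7, 6 and 8 peaks in Raf-active and 1, 2, 5 and 4 in Raf-inactive normoxia, without overlap, and rose by 0.91 ± 0.23 (adjusted p = 1.9e-03, limma). HOXC6 has the same values. Of the other rises, HOXC4 rose by 0.69, HOXA4 by 0.54, HOXB2 by 0.50, HOXC9 by 0.45, HOXB3 by 0.38 and HOXC8 by 0.28.

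The largest falls were at HOXD and at the anterior end of HOXB. HOXD13, which patterns digits and the genital tubercle, had 1, 1, 1 and 3 peaks in Raf-active and 5, 4, 3 and 4 in Raf-inactive normoxia, a fall of 1.23 ± 0.20 on the log2 scale (adjusted p = 1.85e-05, limma). HOXB1, which specifies a hindbrain segment, had 3, 3, 2 and 4 peaks in Raf-active and 6, 5, 5 and 5 in Raf-inactive normoxia, and fell by 0.87 ± 0.17 (adjusted p = 2.28e-04, limma). HOXD8 had 3, 2, 3 and 2 peaks in Raf-active and 3, 4, 5 and 4 in Raf-inactive normoxia, and fell by 0.71 ± 0.17 (adjusted p = 1.53e-03, limma). The groups overlapped by 1 shared value for HOXD13 and HOXD8 and did not overlap for HOXB1. No peak of any library lay over the HOXB1 gene body. All its counted peaks were in the 10 kb on each side, so the fall is one of flanking peaks. The HOXD8 call was lost in lists of equal length (-0.23, adjusted p = 0.206, limma). The smaller falls were HOXB6 at -0.42, HOXB7 at -0.40, HOXB8 at -0.39, HOXA7 at -0.38, HOXA9 at -0.33 and HOXA6 at -0.27, where HOXA9 is posterior and the others are central. By base pairs covered 3 of these ran the other way, at 0.244 for HOXB6, 0.122 for HOXB7 and 0.227 for HOXB8, each of them called. When peaks under 5-fold enrichment were left out, HOXB7 (0.117), HOXB8 (0.279), HOXA7 (0.176) and HOXA6 (0.257) also turned, and the HOXB3 rise became a fall of 0.462.

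**Figure D3:**
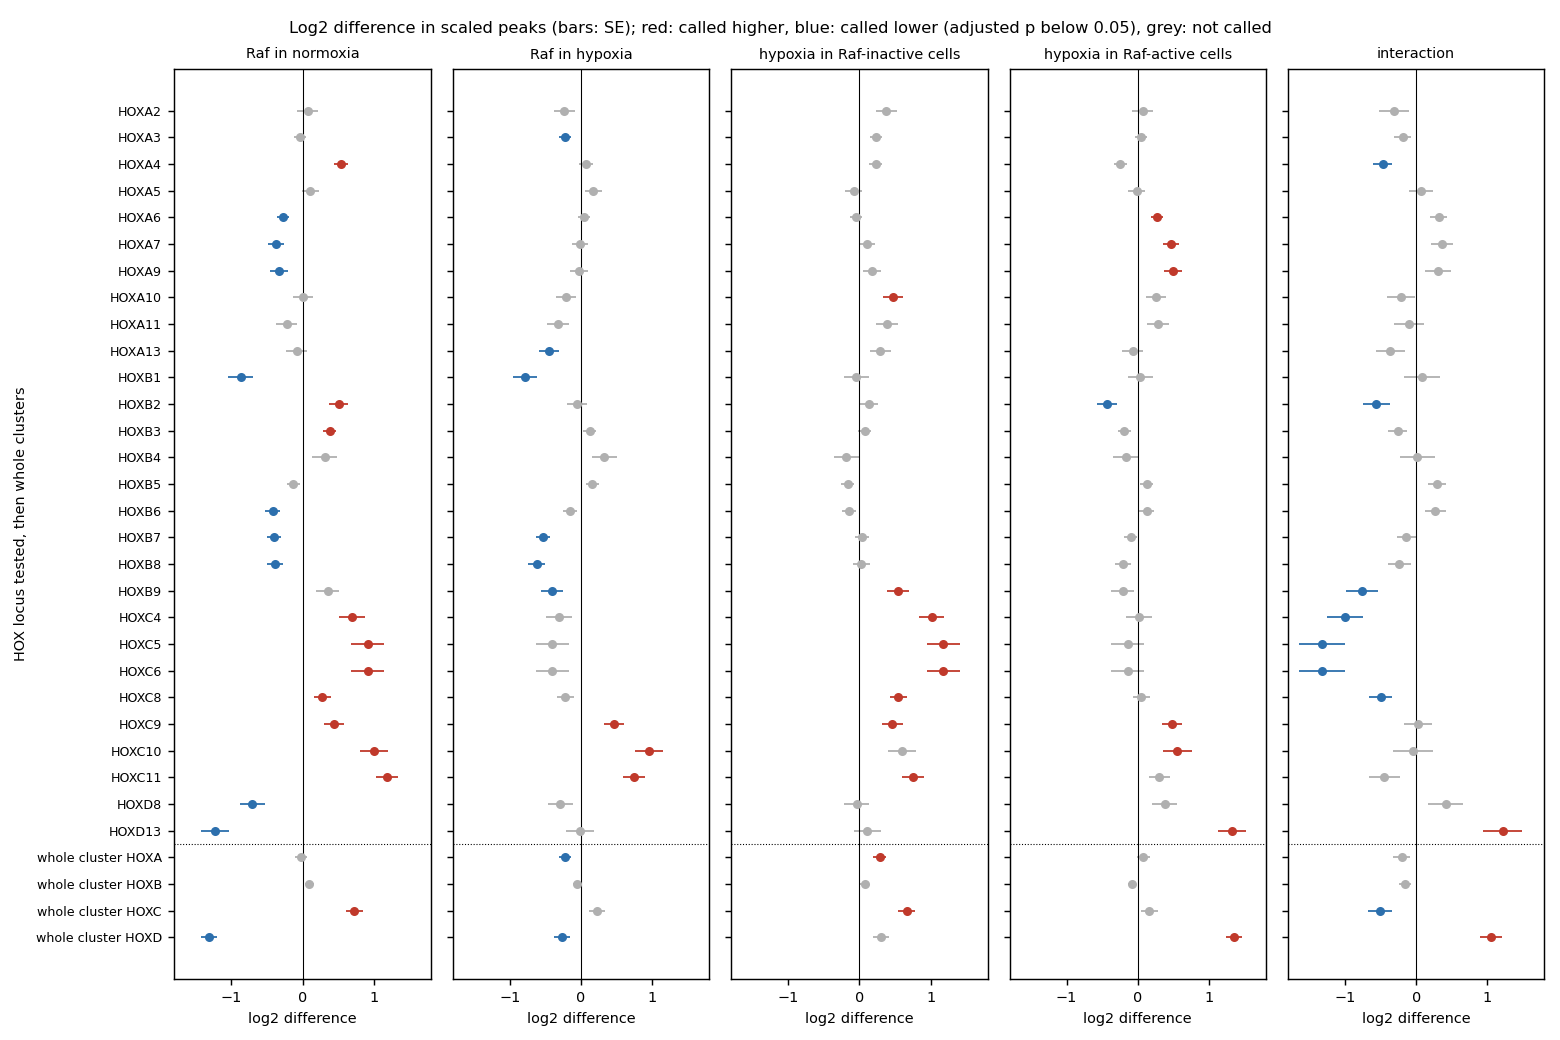
Log2 difference in scaled peaks (horizontal axis, bars are the SE) at tested HOX loci and the 4 whole clusters for the 4 comparisons and the interaction, in red where called higher, in blue where called lower and in grey where not called. The HOXD cluster lies at -1.32 for Raf in normoxia and at 1.35 for hypoxia in Raf-active cells.

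With Raf active in hypoxia, 3 of the 29 members rose and 6 fell, where 33.7% of all loci rose and 26.5% fell. The median was -0.15 over the members and 0.05 over all loci. Without scaling, which moved the median of all loci to 0.29, the split was 10 rises and 3 falls. The 3 rises were HOXC10, HOXC11 and HOXC9, and both tested HOXD members were not called.

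HOXC10 had 5, 6, 7 and 7 peaks in Raf-active hypoxia and 2, 2, 3 and 2 in Raf-inactive hypoxia, and rose by 0.96 ± 0.20 (adjusted p = 3.73e-04, limma). HOXC11 had 4, 5, 6 and 6 in Raf-active and 2, 2, 2 and 3 in Raf-inactive hypoxia, and rose by 0.74 ± 0.15 (adjusted p = 3.02e-04, limma). HOXC9, a thoracic gene, had 6, 8, 8 and 8 in Raf-active and 4, 4, 5 and 4 in Raf-inactive hypoxia, and rose by 0.47 ± 0.14 (adjusted p = 7.37e-03, limma). At each of these 3 loci every Raf-active library lay above every Raf-inactive one in listed peaks. After scaling HOXC9 overlapped, with 5.593 in Raf-active replicate 1 and 5.707 in Raf-inactive replicate 3. As said for normoxia, HOXC10 and HOXC11 entered the test through their Raf-active values.

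HOXB1 had 3, 2, 4 and 3 peaks in Raf-active and 6, 6, 5 and 3 in Raf-inactive hypoxia, and fell by 0.79 ± 0.17 (adjusted p = 6.48e-04, limma). HOXB8 had 4, 5, 4 and 4 in Raf-active and 8, 5, 6 and 5 in Raf-inactive hypoxia, and fell by 0.62 ± 0.12 (adjusted p = 1.25e-04, limma). HOXB7 had 6, 7, 6 and 6 in Raf-active and 10, 7, 8 and 7 in Raf-inactive hypoxia, and fell by 0.54 ± 0.10 (adjusted p = 7.41e-05, limma). Each of the 3 had values shared by both groups. The HOXB1 peaks again lay beside the gene body and not over it. The direction turned for HOXB8 (0.26) and HOXB7 (0.29) when peaks under 5-fold enrichment were left out, and HOXB7 was not called at matched depth (-0.23, adjusted p = 0.0763, limma). The other falls were HOXA13 at -0.45, HOXB9 at -0.41 and HOXA3 at -0.22. These turned to 0.349 for HOXA13 and 0.03 for HOXB9 by base pairs covered and to 0.029 for HOXA3 without scaling.

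With hypoxia in Raf-inactive cells, 8 of the 29 members rose and none fell in limma (0 also at an unadjusted p below 0.05), where 6.38% of all loci rose and 7.29% fell. The median was 0.23 over the members. Without scaling 5 members rose and 0 fell, while over all loci 28.6% of the calls were rises without scaling and 46.7% with it. No fall was called in 10 of the 12 other settings, the exceptions being base pairs covered, with 2, and every summit counted, with 1. Of the 8, 6 were HOXC genes, and the others were HOXA10 (0.47) and HOXB9 (0.54). HOXC5, with the same peaks as HOXC6, had 5, 8, 8 and 7 peaks in Raf-inactive hypoxia and 1, 2, 5 and 4 in Raf-inactive normoxia, a rise of 1.18 ± 0.23 (adjusted p = 2.47e-03, limma). HOXC4 had 7, 10, 9 and 9 in Raf-inactive hypoxia and 2, 4, 6 and 5 in Raf-inactive normoxia, a rise of 1.01 ± 0.18 (adjusted p = 1.14e-03, limma). HOXC4 did not overlap between the groups, and HOXC5 shared 1 value. Fitted to the libraries of both groups alone, 4 members were called and HOXC5 was not (adjusted p = 0.0671, limma). HOXC11 rose by 0.75, HOXC8 by 0.55 and HOXC9 by 0.46. Matched depth gave the following mean peaks, Raf-inactive hypoxia before Raf-inactive normoxia. They were 5.25 and 2.5 at HOXC5 and HOXC6, 6.75 and 3.75 at HOXC4, and 5.0 and 3.75 at HOXC8. At HOXC9 they were 4.0 and 2.75, at HOXC11 1.5 and 1.0, at HOXA10 6.0 and 4.5 and at HOXB9 4.5 and 3.5.

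With hypoxia in Raf-active cells, 6 of the 29 members rose and 1 fell, where 13.7% of all loci rose and 14.2% fell. The split was 5 and 2 without scaling, and over all loci 37.7% of the calls were then rises, against 49.2% with scaling. HOXD13 had 4, 5, 5 and 6 peaks in Raf-active hypoxia and 1, 1, 1 and 3 in Raf-active normoxia, without overlap, a rise of 1.33 ± 0.20 (adjusted p = 4.26e-05, limma). HOXC10 had 5, 6, 7 and 7 in Raf-active hypoxia and 5, 4, 2 and 6 in Raf-active normoxia, with overlap, a rise of 0.56 ± 0.20 (adjusted p = 0.0426, limma). Without Raf-active normoxia replicate 3, the lowest library, that difference was 0.33 and was not called (adjusted p = 0.173, limma), and with the replicate number as a block it missed the threshold as well (adjusted p = 0.057, limma). HOXA9, a gene of blood progenitors and of the posterior axis, had 8, 6, 6 and 5 in Raf-active hypoxia and 4, 5, 4 and 4 in Raf-active normoxia, a rise of 0.49 ± 0.13 (adjusted p = 6.05e-03, limma) that turned to -0.04 at matched depth. HOXC9 (0.49), HOXA7 (0.47, but -0.018 at matched depth) and HOXA6 (0.27, but -0.027 at 5-fold enrichment or more) were the other rises. The fall was HOXB2, a hindbrain gene, with 6, 6, 6 and 4 peaks in Raf-active hypoxia and 8, 9, 7 and 8 in Raf-active normoxia (-0.43 ± 0.13, adjusted p = 0.0205, limma). At matched depth HOXB2 was at -0.30 and not called (adjusted p = 0.11, limma).

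The Raf change differed between oxygen states at 8 members, 1 higher and 7 lower in hypoxia than in normoxia, where 9.97% of all loci were higher and 9.66% lower. HOXD13 was the higher one (1.21 ± 0.28, adjusted p = 4.58e-03, limma), and with every summit counted it was 1.006 and not called (adjusted p = 0.0563, limma). The largest of the 7 were HOXC5 and HOXC6 (-1.32 ± 0.33 each, adjusted p = 8.07e-03, limma) and HOXC4 (-0.999 ± 0.25, adjusted p = 9.32e-03, limma). The HOXC4 call was lost at matched depth (adjusted p = 0.0586, limma). HOXB9 (-0.76), HOXB2 (-0.56), HOXC8 (-0.50) and HOXA4 (-0.47) made up the rest. HOXB9 had 6 peaks in each Raf-active normoxia library and 4, 4, 4 and 3 in Raf-inactive normoxia, but 6, 6, 5 and 3 in Raf-active hypoxia and 8, 5, 5 and 5 in Raf-inactive hypoxia.

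By position along the clusters, the tested members comprised 6 anterior (numbers 1 to 3), 14 central (4 to 8) and 9 posterior genes (9 to 13). With hypoxia 4 central and 4 posterior members rose in Raf-inactive cells, and 2 central and 4 posterior members in Raf-active cells, where 6.38% and 13.7% of all loci rose. For Raf in normoxia, 2 anterior, 5 central and 3 posterior members rose and 1, 6 and 2 fell. Posterior medians were 0.47 with hypoxia in Raf-inactive cells and 0.30 with hypoxia in Raf-active cells, against 0.03 and 0.00 for the central and 0.18 and 0.04 for the anterior ones. These are counts over loci that share peaks, and the classes were not tested against each other.

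The 10 members below the minimum were low throughout, with 0 to 4 peaks in every library. HOXD11, a limb gene, had 1 peak in each Raf-active normoxia library and 4, 2, 4 and 3 in Raf-inactive normoxia. HOXD12 had 1, 1, 1 and 2 in Raf-active and 3, 2, 2 and 2 in Raf-inactive normoxia. HOXB13, a gene of the prostate and tail end, had 4, 4, 3 and 3 peaks in Raf-active hypoxia and 1, 1, 2 and 1 in Raf-inactive hypoxia. HOXC12 had 4, 3, 2 and 3 in Raf-active and 1, 0, 1 and 2 in Raf-inactive normoxia. The 4 were chosen after their values were seen.

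Merging the 16 lists gave 156 regions within the clusters, and 135 of them were found in 2 libraries or more. A peak was present in every one of the 16 lists at 38 of the 135 (28.1%), against 26.3% of 299052 such regions over the genome. The share was 13 of 33 in HOXA, 19 of 51 in HOXB, 3 of 32 in HOXC and 3 of 19 in HOXD. A region is called gained when all 4 libraries of the first-named group and none of the other have a peak, and lost in the opposite case. Raf activity in normoxia came with 11 gained and 8 lost of the 135, where 14.1% of all regions were gained and 10.6% lost. Raf activity in hypoxia came with 13 gained and 6 lost, where the shares over all regions were 13.8% and 8.82%. Hypoxia gave 3 gained and 2 lost in Raf-inactive cells, where the shares were 1.5% and 1.59%, and 7 gained and 2 lost in Raf-active cells, where they were 3.69% and 3.06%.

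HOXD held 5 of the 7 regions gained with hypoxia in Raf-active cells. Of its 19 regions, 5 were gained with hypoxia in Raf-active cells and 0 lost, and 5 were gained at matched depth as well, although 3 regions were common to both counts. A region at chr2:176079899-176080964, over EVX2, a homeobox gene beside HOXD13, had a peak in 0 of 4 Raf-active normoxia libraries, 4 of 4 Raf-inactive normoxia libraries and 4 of 4 in both hypoxia groups, and so at matched depth. A region of 436 bases at chr2:176198979-176199414, beyond HOXD1, had a peak in 4 of 4 libraries of both hypoxia groups and in none of normoxia. At matched depth it kept 4 of 4 in Raf-active and 3 of 4 in Raf-inactive hypoxia. The region over the start of HOXD9, at chr2:176122311-176123375, was listed in 0 of 4 Raf-active normoxia libraries and in 4 of 4 of each other group. At matched depth it was listed in none of the normoxia libraries, in 4 of 4 of Raf-active hypoxia and in 2 of 4 of Raf-inactive hypoxia. One region over HAGLR, a long noncoding RNA gene of HOXD, at chr2:176176248-176176546, was listed in 4 of 4 Raf-active hypoxia libraries and nowhere else. At matched depth it was listed in 2 of those 4. The region over HOXD11 at chr2:176111284-176111749 was listed in 0 of 4 Raf-active and 4 of 4 Raf-inactive hypoxia libraries.

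**Figure D4:**
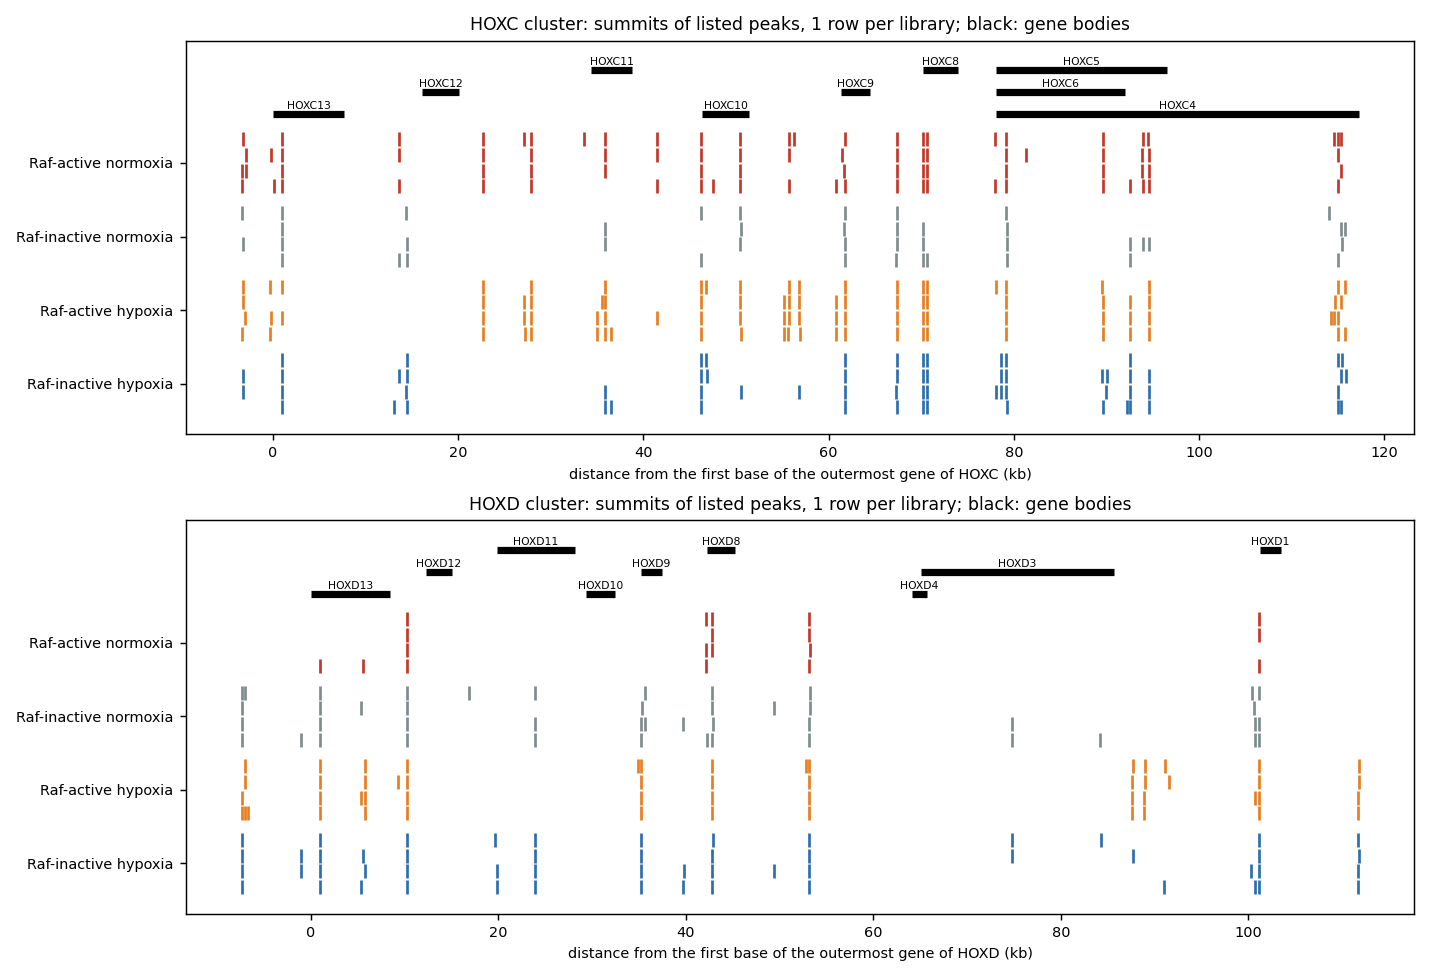
Summits of listed peaks along the HOXC (upper) and HOXD (lower) clusters, 1 row per library, against the distance in kb from the first base of the outermost gene, with gene bodies in black. In HOXD, the column of summits before HOXD13, over EVX2, is missing from the 4 Raf-active normoxia rows and present in the other 12.

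In HOXC, 3 regions were gained with Raf active in normoxia. One, at chr12:54028187-54029000 within HOXC4, HOXC5 and HOXC6, was listed in 4 of 4 Raf-active and 0 of 4 Raf-inactive normoxia libraries, also at matched depth, and in 4 of 4 Raf-active and 3 of 4 Raf-inactive hypoxia libraries. The others lay among the posterior genes: a region at chr12:53961070-53961896, between HOXC12 and HOXC11, and one at chr12:53966256-53967051 over HOTAIR, the long noncoding RNA gene of that interval, were each listed in 4 of 4 Raf-active and 0 of 4 Raf-inactive libraries in both oxygen states. At matched depth the HOTAIR region was listed in 2 of 4 Raf-active normoxia libraries. A region at chr12:53953102-53953472, near the start of HOXC12, was lost with Raf active in hypoxia (0 of 4 against 4 of 4). With hypoxia in Raf-active cells a region over HOXC-AS2, at chr12:53995297-53996000, was gained, and one within HOXC4 and HOXC5, at chr12:54032570-54032873, was lost. At matched depth neither was, with 3 of 4 Raf-active hypoxia and 0 of 4 Raf-active normoxia libraries at the HOXC-AS2 region and 0 of 4 and 3 of 4 at the other.

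In HOXA, a region within HOXA3 at chr7:27118151-27118895 was listed in 0 of 4 Raf-active and 4 of 4 Raf-inactive libraries in both oxygen states. In the lists that held it, its median percentile by the authors' -log10 p was 76.6 in Raf-inactive normoxia and 65.3 in Raf-inactive hypoxia, so it ranked above most peaks of those lists. A region within HOXA3 at chr7:27137155-27137688 had the opposite pattern. The HOXA region of highest rank gained with hypoxia in Raf-inactive cells was at chr7:27106605-27106998, and the one lost with hypoxia in Raf-active cells was within HOXA3 at chr7:27134384-27134759.

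In HOXB, a region over LOC105371808, beyond the 3′ end of HOXB1, lay at chr17:48520648-48521171. It was listed in 0 of 4 Raf-active and 4 of 4 Raf-inactive libraries in both oxygen states. A region within HOXB3, at chr17:48549237-48549543, was gained with Raf active in normoxia, but was listed in 3 of 4 Raf-active normoxia libraries at matched depth. The region over the start of HOXB13, at chr17:48728561-48729158, was listed in 4 of 4 Raf-active and 0 of 4 Raf-inactive hypoxia libraries, and in 4 of 4 Raf-active and 2 of 4 Raf-inactive normoxia libraries. A region in HOXB7, at chr17:48608971-48609256, was listed in the 4 Raf-inactive normoxia libraries and in no other. With hypoxia in Raf-active cells a region over PRAC2, at chr17:48719154-48719463, was gained, and it had no peak in any library at matched depth.

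A HOX promoter was counted open in a library when a listed peak overlapped the 300 bases around its gene's outer end. Of the 39 HOX promoters, 16 were open in 4 of 4 libraries in Raf-active and 9 in Raf-inactive normoxia, with 20 in Raf-active and 17 in Raf-inactive hypoxia. For 15812 protein-coding genes the RefSeq promoter windows were used instead. Their share open in 4 of 4 was 66.6% in Raf-active and 64.9% in Raf-inactive normoxia, with 68.3% in Raf-active and 65.9% in Raf-inactive hypoxia. The HOX shares were 41.0%, 23.1%, 51.3% and 43.6% in that order, lower in each group and more unlike between groups. The windows of both sets were not placed alike, and HOXC4, HOXC5 and HOXC6 count the same window. The part of this in the lower HOX shares was not tested. At matched depth, an alternative chosen after the data were seen, the numbers of HOX promoters were 15 and 9 in normoxia and 20 and 14 in hypoxia, Raf-active given before Raf-inactive.

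**Figure D5:**
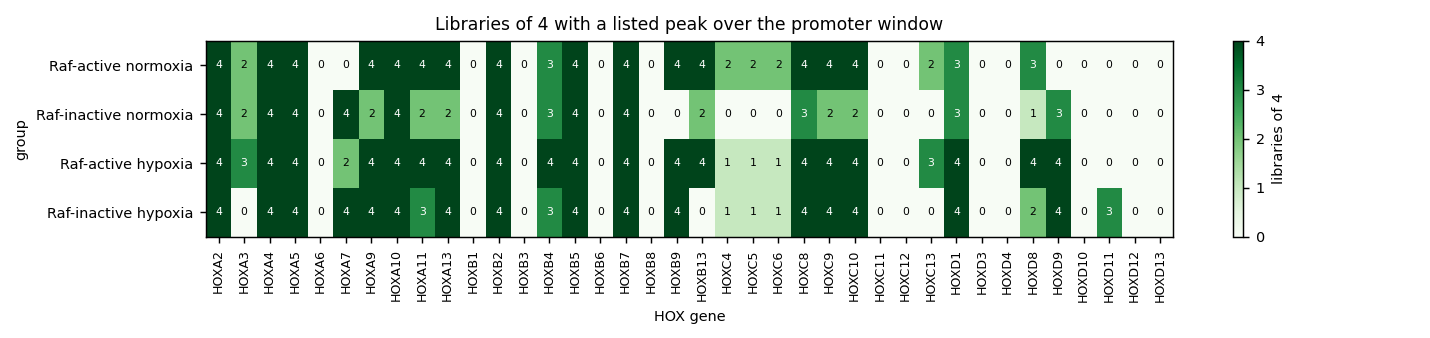
Number of libraries of 4 with a listed peak over the promoter window, for each group (rows) and 38 of the HOX genes (columns). HOXA7 reads 0, 4, 2 and 4 from the top row down, and HOXB9 reads 4, 0, 4 and 4.

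Posterior promoters made up all of the net difference in number between the normoxia groups. Of 16 posterior promoters, 8 were open in 4 of 4 libraries in Raf-active and 1 in Raf-inactive normoxia, with 9 in Raf-active and 7 in Raf-inactive hypoxia. The numbers were 7 and 1, and 9 and 4, at matched depth. Of 15 central promoters, 5 were open in both normoxia groups, 7 in Raf-active hypoxia and 6 in Raf-inactive hypoxia, and of 8 anterior ones 3, 3, 4 and 4. HOXA10 was the posterior promoter open in Raf-inactive normoxia. HOXB9 was open in 4 of 4 libraries in Raf-active normoxia and 0 of 4 in Raf-inactive normoxia, and in 4 of 4 of both hypoxia groups. HOXA9, HOXA13, HOXC9 and HOXC10 were each open in 4 of 4 libraries of Raf-active normoxia, 2 of 4 of Raf-inactive normoxia and 4 of 4 of both hypoxia groups. At matched depth HOXC9 and HOXC10 kept these numbers, while HOXA9 was open in 1 of 4 Raf-inactive normoxia and 2 of 4 Raf-inactive hypoxia libraries, HOXA13 in 1 of 4 Raf-inactive normoxia libraries and HOXB9 in 3 of 4 Raf-inactive hypoxia libraries.

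The promoter of HOXA7, a central gene of the trunk, ran the other way. It was open in 0 of 4 Raf-active and 4 of 4 Raf-inactive normoxia libraries, and in 2 of 4 Raf-active and 4 of 4 Raf-inactive hypoxia libraries, and at matched depth in none of the 8 Raf-active libraries. HOXD9, a posterior gene of trunk and limb, was open in 0 of 4 Raf-active and 3 of 4 Raf-inactive normoxia libraries and in all 8 hypoxia libraries. Its 3 Raf-inactive normoxia peaks were weak, with a median percentile of 3.2 in their lists, and were not listed at matched depth. Promoters open in all 16 libraries included those of HOXA2, HOXA4, HOXA5, HOXA10, HOXB2, HOXB5 and HOXB7. Outer-end windows of HOXA6, HOXB1, HOXB3, HOXB6, HOXB8, HOXC11, HOXC12, HOXD3, HOXD4, HOXD10, HOXD12 and HOXD13 had no listed peak in any library. HOXC4, HOXC5 and HOXC6, which share 1 annotated outer end, had one in 4 libraries. For HOXD3 and HOXD13 the RefSeq window lies further inside the gene. That of HOXD13 overlaps a merged region at chr2:176092668-176093480. The region had a peak in 4 of 4 Raf-active and 3 of 4 Raf-inactive hypoxia libraries. In normoxia it had one in 1 of 4 libraries of each group. Whether each of these peaks reached the RefSeq window was not tested.

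The peaks at other genes of the HOX system were counted in the same way. The shares of all loci to read these counts against are 37.2% higher and 25.9% lower for Raf in normoxia, 33.7% and 26.5% for Raf in hypoxia, 6.38% and 7.29% for hypoxia in Raf-inactive cells and 13.7% and 14.2% for hypoxia in Raf-active cells. For Raf in normoxia, 3 of 9 cofactor loci of the PBX, MEIS and PKNOX families rose and 4 fell, led by MEIS3 (0.81) among the rises. In hypoxia 3 rose and 5 fell, led by MEIS3 (0.55) among the rises. Hypoxia raised 1 in Raf-inactive cells and 2 in Raf-active cells, led by PBX2 (0.39).

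Among 15 neighbours of the clusters 12 were tested, of which 6 rose and 6 fell with active Raf in normoxia (37.2% and 25.9% of all loci), led by SKAP1 beside HOXB (1.04) and LNPK beside HOXD (-1.69). In hypoxia 3 rose and 5 fell, led by SKAP1 (0.64) and LNPK (-1.15). With hypoxia 1 rose in Raf-inactive cells, TTLL6 (0.39), and 5 rose and 2 fell in Raf-active cells, led by SNX10 (0.90) and HNRNPA1 (-0.55). The interaction was higher for 3 neighbours and lower for 1 (9.97% and 9.66% of all loci), led by SKAP2 (0.77) and CBX5 (-0.78).

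Retinoic acid induces HOX genes in development. Raf activity in normoxia went with rises at 2 of 9 tested loci of its binding, making and breakdown and falls at 3 (37.2% and 25.9% of all loci), led by the binding protein gene CRABP2 (0.84) and CYP26A1, which breaks retinoic acid down (-0.68). In hypoxia 3 rose and 2 fell with Raf active, led by the receptor genes RXRA (0.43) and RARB (-0.51). With hypoxia 2 rose in Raf-inactive cells, led by CRABP2 (0.55), and 2 in Raf-active cells, led by CYP26A1 (0.77). Of 3 tested ParaHox loci, the sister family of HOX, CDX1 rose (0.29) and CDX2 fell (-0.39) with Raf active in normoxia, GSX2 fell with Raf active in hypoxia (-0.56), and CDX2 rose with hypoxia in Raf-active cells (0.91).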

How the data were processed

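Chromatin accessibility was measured in 16 libraries, 4 per group, with groups taken from the labels. The submitters' processing notes name the peak caller MACS2, the aligner Bowtie2, the trimmer cutadapt, and FastQC, Picard, SAMtools, bedtools and deepTools, with hg38; versions and settings are not given in the sources used here. The authors deposited 1 peak list per library, each line holding a score, a fold ratio over local background, and -log10 p and -log10 q of the caller. These were used only to rank or filter peaks within a list, and to recover pileups.

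Lines with the same interval were merged, and chromosomes 1 to 22 and X were kept. Pileup and background were solved from fold and -log10 p; pileups came out whole (within 0.02) for 100.0% of lines in every library. For matched depth, pileups were thinned binomially to a background of 3.013 and peaks kept at a -log10 p of at least 5. The limma 3.58.1 fit (R 4.3.3) held all 16 libraries, 4 group means, a pseudocount of 1 peak and loci averaging 3 scaled peaks or more. The fit and the recovery were tested on simulated data. The same replicate number did not pair libraries: correlations of deviations ran from -0.039 to 0.014 over 16 pairs.

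The members, lists and tests were chosen with earlier results of these data known. Loci named in full were the 3 largest called rises and falls per comparison, and regions the gained and lost one of highest median rank per cluster. Regions and promoters were described without a test. Motifs in the regions were not searched, since no genome was used here. A few genes that entered the fits and counts are not reported here by name.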

Additional observations from a re-analysis of the deposited data

Results flagged for a closer look

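In 15 of 68 sets of 4 libraries, 1 library stood apart from the other 3. Chance alone sets about 1 in 20 apart where values are continuous and independent. These are small whole counts, often tied, divided by a library factor, at loci that share peaks. The number flagged therefore cannot be read against that rate. Values are scaled peaks, with the listed peaks of that library. High libraries in Raf-active normoxia were replicate 3 at HOXB7 (6.641, 7 peaks) and replicate 4 at HOXD13 (2.654, 3 peaks). Every library of that group had 7 peaks at HOXB7, so replicate 3 stood apart there only by its scale factor. High in Raf-inactive normoxia were replicate 1 at HOXB1 (6.481, 6 peaks) and at HOXC10 (2.16, 2 peaks), and low was replicate 2 at HOXB2 (3.271, 3 peaks). High in Raf-active hypoxia were replicate 2 at HOXB7 (6.648, 7 peaks) and HOXB8 (4.749, 5 peaks) and replicate 1 at HOXD8 (4.661, 5 peaks), and low were replicate 4 at HOXB2 (3.755, 4 peaks) and replicate 1 at HOXC9 (5.593, 6 peaks). High in Raf-inactive hypoxia were replicate 1 at HOXA9 (6.655, 6 peaks), replicate 3 at HOXC10 (3.424, 3 peaks) and HOXC9 (5.707, 5 peaks) and replicate 4 at HOXC11 (3.358, 3 peaks), and low was replicate 2 at HOXB2 (4.471, 4 peaks).

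The Raf change differed between hypoxia and normoxia by the interaction in limma at 8 loci and 2 clusters. The log2 difference was 1.213 at HOXD13 and 1.048 for the HOXD cluster. It was -1.319 at HOXC5 and -1.319 at HOXC6, -0.999 at HOXC4, -0.756 at HOXB9, -0.56 at HOXB2, -0.499 at HOXC8, -0.471 at HOXA4 and -0.502 for the HOXC cluster.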

How the results depend on the processing

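Values are numbers of HOX loci called or log2 differences of whole clusters. The number of loci tested changed with the setting, so most counts cannot be read as calls lost or gained at the same loci. Over all loci, 15118 were tested in the main fit and by base pairs, 10531 with a 2 kb flank and 10704 at 5-fold. Unscaled 15175 were tested, at equal length 14195, at matched depth 14060 and with every summit 16398. For Raf in normoxia 5 loci were called with a 2 kb flank and 8 at 5-fold enrichment or more, against 19. Over all loci 3840 rose and 3047 fell with 2 kb and 3728 and 2834 at 5-fold, against 5621 and 3920. HOXA was above 0 unscaled (0.227), with a 2 kb flank (0.075), by base pairs covered (0.059), at a -log10 q of 5 (0.033), at 5-fold (0.372) and with every summit (0.03), and -0.071 to 0.051 with 1 library left out. HOXB was called unscaled (0.348), with 2 kb (0.311), by base pairs (0.34), at q 5 (0.134), in lists of equal length (0.144) and with every summit (0.317). For Raf in hypoxia 1 locus was called with 2 kb and 3 at 5-fold, against 9. Over all loci 3487 rose and 3034 fell with 2 kb and 3386 and 2712 at 5-fold, against 5097 and 4008. HOXA was 0.029 unscaled, 0.054 by base pairs and 0.237 at 5-fold, and uncalled at -0.178 with 2 kb and -0.024 with every summit (-0.308 to -0.181 with 1 library left out). HOXB was 0.203 unscaled, 0.114 with 2 kb, 0.082 by base pairs, 0.112 at 5-fold and 0.018 with every summit. HOXC was called unscaled (0.477), by base pairs (0.466), at q 5 (0.402), at 5-fold (1.308) and with every summit (0.402). HOXD was uncalled unscaled (-0.021), with 2 kb (-0.275), at q 5 (-0.104), at equal length (-0.252) and at matched depth (-0.163), and 0.275 at 5-fold (-0.326 to -0.213 with 1 library left out). At 5-fold HOXB8 was 0.264 and HOXB7 0.292.

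For hypoxia in Raf-inactive cells 5 loci were called unscaled, 3 with 2 kb, 18 by base pairs, 1 at 5-fold and 4 in the fit to those groups alone, against 8. Over all loci 600 rose and 1499 fell unscaled and 686 and 785 with 2 kb, against 965 and 1102. By base pairs these numbers were 1773 and 1930, and at 5-fold 907 and 1015. HOXA was uncalled unscaled (0.229), at 5-fold (0.144), without the minimum (0.284) and with the replicate block (0.284), and 0.235 to 0.332 with 1 library left out. HOXB was -0.006 at q 5, -0.042 at 5-fold and -0.02 at matched depth, and HOXC was uncalled at 5-fold (0.231). HOXD was called by base pairs (0.532), at equal length (0.408) and with every summit (0.638), and was 0.214 to 0.366 with 1 library left out. For hypoxia in Raf-active cells 0 loci were called with 2 kb, 15 by base pairs, 2 at 5-fold, 4 at matched depth, 13 with every summit and 11 without the minimum, against 7, and 4 to 7 with 1 library left out, 4 being without Raf-active hypoxia replicate 4. Over all loci 1690 rose and 1579 fell with 2 kb and 2986 and 3382 by base pairs, against 2070 and 2141. These numbers were 1468 and 1436 at 5-fold, 1789 and 1767 at matched depth and 2377 and 2247 with every summit. HOXA was called by base pairs (0.2) and with every summit (0.191), and -0.0 to 0.125 with 1 library left out. HOXB was called by base pairs (-0.203), at q 5 (-0.154), at equal length (-0.181) and with every summit (-0.227), and 0.052 at 5-fold. HOXA9 was -0.035 at matched depth. The interaction was called at 3 loci with 2 kb, 0 at 5-fold, 4 at equal length and 5 at matched depth, against 8. Over all loci 1234 were higher and 1057 lower with 2 kb and 1171 and 1114 at 5-fold, against 1507 and 1461. At equal length these numbers were 1348 and 1228, and at matched depth 1219 and 1123. HOXB was called by base pairs (-0.257) and with every summit (-0.299), was 0.094 at 5-fold, and -0.216 to -0.109 with 1 library left out. HOXC was uncalled unscaled (-0.492), at q 5 (-0.452), at matched depth (-0.441) and without the minimum (-0.502), 0.03 at 5-fold, and -0.612 to -0.433 with 1 library left out. With 1 library left out, the HOXC interaction kept its call in 5 of 16 fits.

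Unscaled, 77.5% of calls over all loci were higher for Raf in normoxia, 78.4% in hypoxia, 28.6% for hypoxia in cells with Raf inactive and 37.7% with Raf active, against 58.9%, 56.0%, 46.7% and 49.2%. At matched depth, chosen after the data were seen, 7 regions were gained with Raf in normoxia and 6 in hypoxia, against 11 and 13. Causes were not tested. The replicate numbers did not pair libraries (same-number correlations -0.039 to 0.014, 4 of 16 highest with their own number), and with the replicate block 19, 9, 8, 6 and 6 loci were called for Raf in normoxia and hypoxia, hypoxia in cells with Raf inactive and active, and the interaction, against 19, 9, 8, 7 and 8. The block ended the calls of HOXC10 for hypoxia with Raf active (0.557) and of the HOXA cluster with Raf inactive (0.284). Depth limits weak peaks most: a peak missing from a Raf-inactive list may lie below its threshold, and counts of a few peaks per locus move by 1 peak.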
